A study of Homo sapiens with 19 samples.

Results

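Collagens are the main structural proteins of the extracellular matrix. Each molecule is a trimer of alpha chains, and each chain is the product of its own COL gene. Fibrillar collagens form the banded fibres of connective tissue, type IV collagens form the sheet under epithelia and vessels, type VI forms beaded filaments, and the fibril-associated collagens with interrupted triple helices (FACIT) bind to the surface of fibres. Polycomb repressive complex 2 (PRC2) places the H3K27me3 mark on chromatin and holds many developmental genes silent in embryonic stem cells. EZH1 and EZH2 are its alternative enzymes, and EED and SUZ12 are core subunits that it needs for activity.

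The members were the 44 genes with a COL symbol that encode a collagen alpha chain, chosen by symbol and not by expression. They were 44 of 33382 genes in the deposited tables, and all 44 were found. By structure they comprised 11 fibrillar genes, 6 type IV genes, 2 multiplexins of the basement membrane zone, 3 genes of the network types VIII and X, 5 of type VI, 10 FACIT genes, 4 transmembrane collagens and 3 others (COL7A1, COL26A1 and COL28A1).

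RNA-seq covered 19 samples of H1, an established human embryonic stem cell (hESC) line, grown without feeder cells. There were 2 samples of wild-type (WT) H1 and 2 of each knockout: SUZ12-/- H1, EED-/- H1, the double knockout EZH2-/-/EZH1-/- H1, EZH2-/- H1 and EZH1-/- H1. A functional domain of each gene was deleted with CRISPR/Cas9 and a selection cassette, and the double knockout was made by targeting EZH1 in EZH2-/- cells. Each line was grown from clones. A further 7 samples, 1 for each condition, came from H1-EED-/-/EED-OE cells, in which endogenous EED was knocked out and a lentiviral EED was induced by doxycycline (DOX): 1 with DOX, whose title also carries day 28, and 1 each at day 8, 12, 16, 20, 24 and 28 without DOX. Per the study, H3K27me3 is lost when SUZ12, EED or both enzymes are knocked out (PRC2-null lines here), and is kept in WT H1 and, at lower levels, in the knockouts of 1 enzyme. The study used more than 1 clone of each knockout, and the titles of knockout replicates carry different names, but no label ties a sample to a clone. The WT titles differ only by a number, so p-values measure the spread between these samples, part of which may be technical.

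Levels are given in TPM, a relative abundance of transcripts that is per length and has the same total in each sample. TPM keeps no read depth, so counting error is unknown. The 2 SUZ12-/- samples were closer to each other than any other pair of replicates, with a median absolute log2 ratio of 0.0884 over genes with a mean TPM of at least 10. The 2 EZH2-/-/EZH1-/- samples were the least close, at 0.5049. EED mRNA was 14.3 and 22.4 TPM in EED-/- H1 and 17.3 and 22.0 TPM in WT H1, which checks nothing since only a domain was deleted. The same holds for SUZ12 (22.9 and 20.8 TPM in SUZ12-/- H1, 25.2 and 27.9 TPM in WT H1), for EZH1 (12.5 and 17.1 TPM in EZH1-/- H1, 13.7 and 14.3 TPM in WT H1) and for EZH2 (46.9 and 22.0 TPM in EZH2-/- H1, 54.6 and 58.9 TPM in WT H1), so these levels do not check the labels. In H1-EED-/-/EED-OE cells, EED mRNA was 109 TPM with DOX, and after withdrawal between 12.6 and 31.6 TPM. Of 8 pluripotency markers, 7 were lower in each PRC2-null sample than in each of the other 6 samples of lines, as were 13.3% of all genes tested. POU5F1 was 3.62 to 150 TPM in PRC2-null samples and 2428 to 3456 TPM in the others, so these levels go against a stem cell label for the PRC2-null samples.

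All 44 members were placed on the human genome (GRCh38, GENCODE annotation), and 17 of them lie within 500 kb of another member, in 9 neighbouring pairs. In 6 pairs both genes were higher in PRC2-null lines, where 30 of the 42 members tested were called higher. A part of position in this was not tested. COL3A1 (chromosome 2, 188974373 to 189012746, plus strand) and COL5A2 (189031898 to 189225312, minus strand) lie tail to tail, 19.2 kb apart. All 6 type IV genes lie head to head in pairs. The RefSeq starts of COL4A1 and COL4A2 on chromosome 13 have 126 bases between them, those of COL4A4 and COL4A3 on chromosome 2 have 418, and those of COL4A6 and COL4A5 on chromosome X have 379.

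The stretches below are shown since the genes of each type IV pair start close together and were both higher in PRC2-null lines. The other 3 genes are shown since they span a range of CpG content and response. Promoter activity and shared control of a pair were not measured. Sequences are from RefSeq (GRCh38.p14), read 5′ to 3′ on the strand of the named gene. Each lies before 1 RefSeq start of the gene and is trimmed to bases outside every GENCODE exon. The COL4A2 and COL11A1 stretches lie inside the GENCODE bounds of their genes, which begin further upstream. Capitals mark CpG dinucleotides, the sites of DNA methylation in mammals. COL4A2 (chr13:110307158-110307257) and COL4A3 (chr2:227164454-227164623) are rich in them, with 14 in 100 bases and 12 in 170 bases. COL4A5 (chrX:108439588-108439837) has 8 in 250 bases, COL11A1 (chr1:103108523-103108772, minus strand) has 11 and COL17A1 (chr10:104085881-104086130, minus strand) has 1. COL26A1 (chr7:101362625-101362874), which was not higher in PRC2-null lines, has 22.
COL4A2: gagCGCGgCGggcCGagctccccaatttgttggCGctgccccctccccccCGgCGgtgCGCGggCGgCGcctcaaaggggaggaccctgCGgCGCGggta
COL4A3: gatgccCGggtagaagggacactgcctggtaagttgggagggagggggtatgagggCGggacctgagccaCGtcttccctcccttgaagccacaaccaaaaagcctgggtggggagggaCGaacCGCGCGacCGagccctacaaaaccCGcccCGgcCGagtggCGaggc
COL4A5: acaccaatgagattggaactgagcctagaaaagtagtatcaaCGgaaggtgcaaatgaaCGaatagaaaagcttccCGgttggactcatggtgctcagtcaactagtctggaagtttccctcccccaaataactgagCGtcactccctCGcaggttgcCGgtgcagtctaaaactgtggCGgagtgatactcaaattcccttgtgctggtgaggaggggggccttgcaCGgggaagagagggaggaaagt
COL11A1: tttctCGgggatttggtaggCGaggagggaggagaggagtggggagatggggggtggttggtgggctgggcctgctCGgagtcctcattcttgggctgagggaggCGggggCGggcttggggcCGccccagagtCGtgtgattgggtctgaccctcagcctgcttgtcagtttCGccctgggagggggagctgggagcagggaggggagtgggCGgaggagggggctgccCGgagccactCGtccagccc
COL17A1: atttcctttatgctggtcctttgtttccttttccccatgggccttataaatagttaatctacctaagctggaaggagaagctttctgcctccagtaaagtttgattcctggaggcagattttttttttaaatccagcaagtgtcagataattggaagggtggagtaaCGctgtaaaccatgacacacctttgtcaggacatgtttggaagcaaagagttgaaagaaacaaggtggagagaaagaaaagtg
COL26A1: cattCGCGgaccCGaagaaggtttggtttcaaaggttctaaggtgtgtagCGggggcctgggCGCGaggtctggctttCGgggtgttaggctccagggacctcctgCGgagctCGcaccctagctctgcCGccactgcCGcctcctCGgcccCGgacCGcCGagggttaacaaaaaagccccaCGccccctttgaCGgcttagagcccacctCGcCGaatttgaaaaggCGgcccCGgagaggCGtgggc

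A RefSeq promoter window, 250 bases before to 50 after a start, was matched by symbol for 32 of the 44 members. Where a gene had several windows, the one with the most CpG was used. The 32 windows held a median of 23.0 CpG, from 1 to 46, against a median of 16.0 over the windows of 27305 genes. The 23 windows of genes higher in PRC2-null lines had a median of 24.0, and the 9 others had 22.0. COL1A1, COL1A2, COL2A1, COL3A1, COL5A2, COL6A1 and COL8A1 were higher in PRC2-null lines but had no window, so these medians leave them out. The letters GGGCGG, searched on both strands, were in 20 of the 32 windows (62.5%) and in 47.0% of all windows. The letters CCAAT, also searched on both strands, were in 11 windows (34.4%) and in 35.0% of all windows. These counts are descriptions of the letters in the windows, and no test was made.

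The first comparison asked how collagen mRNA differed between the PRC2-null lines and the lines that keep H3K27me3. Summed over the 44 genes, collagen TPM was lowest at 7406, had a median of 19330 and was highest at 24062 in the 6 PRC2-null samples. In the 6 other samples of lines the lowest was 658, the median 743 and the highest 1028. Collagen mRNA was 0.741% to 2.406% of all TPM in PRC2-null samples and 0.066% to 0.103% in the others, without overlap. In bulk samples, a change in how many cells of a type there are and a change in RNA per cell cannot be told apart.

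The make-up changed with the amount. In each of the 6 samples of lines that keep H3K27me3, COL18A1 was the collagen with the highest TPM, and COL6A1 and COL26A1 were among the highest 5. In PRC2-null samples the highest was COL1A1, COL1A2 or COL3A1. Fibrillar genes made up 55.8% to 75.4% of collagen TPM in PRC2-null samples and 10.7% to 20.0% in the others. COL18A1 made up 1.12% to 7.67% and 17.4% to 22.6%, respectively.

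Each gene was tested with limma on log2(TPM + 1), as the mean of the 3 PRC2-null lines minus the mean of the 3 other lines, with 2 samples a line. The SE and p rest on the spread of replicates within lines and do not measure the spread between lines. A gene was called where the Benjamini-Hochberg adjusted p was at most 1% and the difference at least 3-fold on this scale, which understates the change of low genes. Keeping genes that reached 1 TPM in 2 or more of the 12 samples left 19100 genes and 42 of the 44 members. Of the 42, 30 were called higher, where 13.5% of all genes tested were, and 0 were called lower, where 5.09% were. At an unadjusted p under 0.05, 34 were higher and 2, COL9A1 and COL26A1, were lower. Shares of all genes at this unadjusted limit are not given, so this count and similar ones below describe the members only. The median log2 difference was 2.58 over the 42 members and 0.29 over all genes tested. Scaling the samples by median ratios moves the median of all genes by -0.21, and 27 of the 30 calls held in each alternative that tested the gene. Where 1 TPM or more was asked of all 12 samples, members below it in any sample were not tested. Over all alternatives, the number called higher was 21 to 34. COL18A1 (log2 1.52) and COL5A3 (1.48) fell under the 3-fold limit with median-ratio scaling, COL5A3 also without EED-/- replicate 1 (1.51), and COL19A1 without EZH2-/-/EZH1-/- replicate 1 (1.38) or without EED-/- replicate 2 (1.57). Of the 42 members, 30 had each PRC2-null sample above each other sample, as had 24.2% of all genes, 1 had each below, as had 13.3%, and 11 overlapped.

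**Figure D1:**
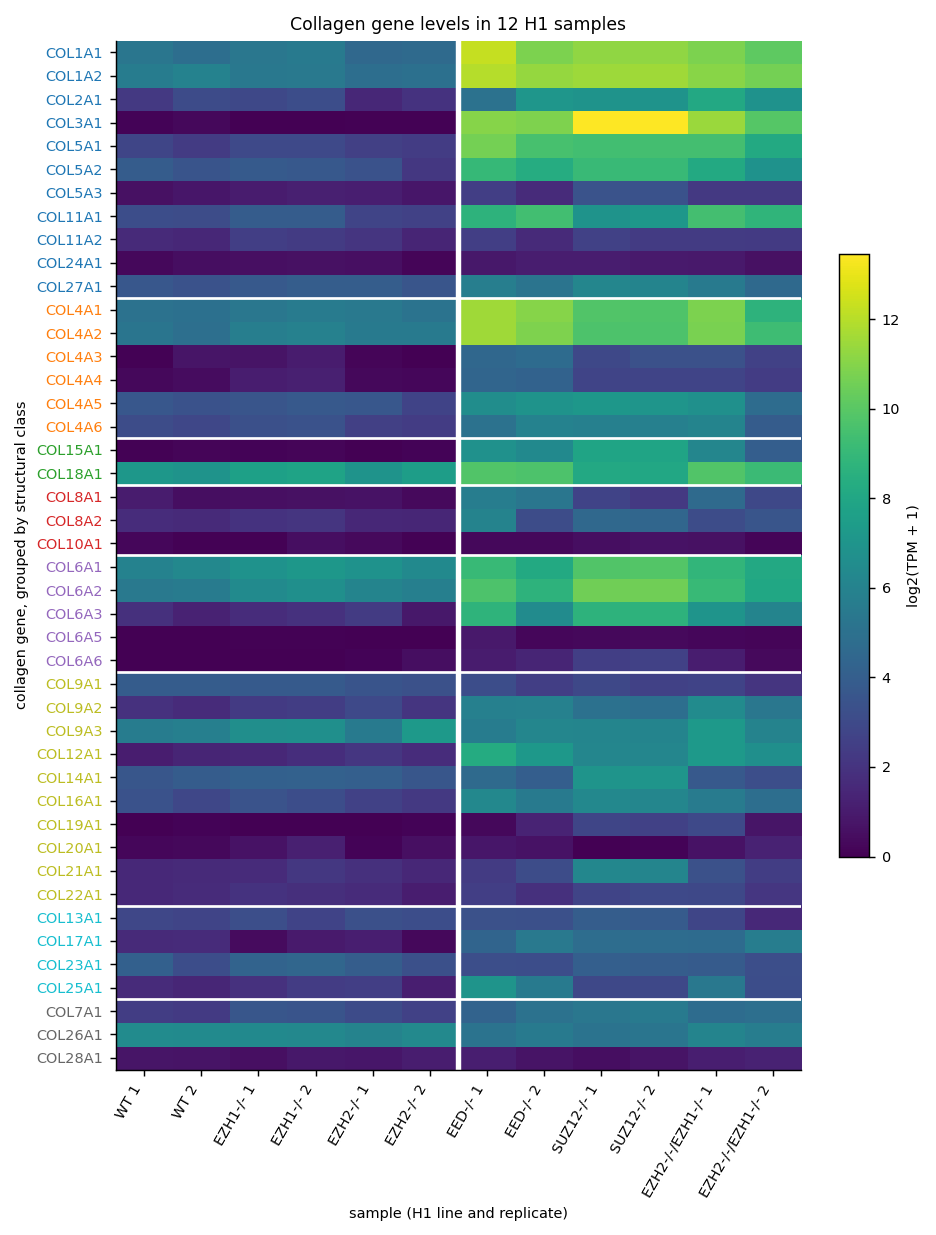
Level of each of the 44 collagen genes, as log2(TPM + 1), in the 12 samples of lines; rows are grouped by structural class, and the white vertical line separates lines that keep H3K27me3 (left) from PRC2-null lines (right). COL3A1 runs from at most 0.22 TPM on the left to at least 961 TPM on the right, and COL26A1 is among the brightest on the left.

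Of the 11 fibrillar genes, 9 were called higher, and the median log2 difference over the class was 5.03. COL3A1 encodes the single chain of type III collagen, found in vessels and soft connective tissue. Its TPM was 0.11 and 0.22 in WT H1, 0.06 and 0.04 in EZH2-/- H1, and listed at 0 in both EZH1-/- samples. It was 2070 and 1873 in EED-/-, 11279 and 11055 in SUZ12-/-, and 2774 and 961 in EZH2-/-/EZH1-/- H1. The groups were far apart, and SUZ12-/- H1 stood above the other PRC2-null lines. The log2 difference was 11.59 ± 0.21 (SE within lines, 3 against 3 lines of 2 samples, adjusted p = 7.371e-11).

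COL1A1 and COL1A2 encode the chains of type I collagen, the main collagen of bone, skin and tendon. COL1A1 was 4901 and 1813 TPM in EED-/-, 2397 in both SUZ12-/- samples, and 1798 and 1133 TPM in EZH2-/-/EZH1-/- H1, against a lowest of 22.6, a median of 33.5 and a highest of 43.9 in the lines that keep H3K27me3. COL1A2 was 4007 and 2620, 2912 and 2931, and 2180 and 1621 TPM in the same order, against 27.6, 42.0 and 61.1. Both were present in undifferentiated lines and rose by log2 6.05 ± 0.22 and 5.97 ± 0.13 (adjusted p = 4.629e-09 and 1.935e-10). The ratio of COL1A1 to COL1A2 was 0.692 to 1.223 in PRC2-null samples and 0.467 to 1.035 in the others, and these ranges overlapped.

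COL5A1, COL5A2 and COL11A1 encode chains of the minor fibrillar types V and XI, which set the diameter of type I and type II fibres. COL5A1 was 1590 and 741 TPM in EED-/-, 679 and 688 TPM in SUZ12-/-, and 693 and 286 TPM in EZH2-/-/EZH1-/- H1, against 4.05 to 6.90 TPM in the other samples (log2 6.75 ± 0.24, adjusted p = 3.692e-09). COL5A2 rose by log2 5.03 ± 0.26 and COL11A1 by 5.13 ± 0.15. The ratio of COL11A1 to COL5A1 was 1.147 to 2.087 in lines that keep H3K27me3 and 0.174 to 1.55 in PRC2-null samples. COL2A1, the chain of cartilage type II collagen, rose from 1.85 to 7.92 TPM to 33.2 to 275 TPM (log2 4.34 ± 0.33). COL27A1 (1.85 ± 0.18) and COL5A3 (1.65 ± 0.18) rose less. COL11A2, the partner of COL11A1 in type XI, was 1.99 to 5.06 TPM in PRC2-null samples and 1.67 to 4.63 TPM in the others and was not called, and COL24A1 stayed at or below 1.09 TPM in the samples of lines.

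All 6 type IV genes were called higher, with a median log2 difference of 3.10. COL4A1 and COL4A2 form the type IV trimer found in nearly all basement membranes. COL4A1 was 2946 and 2104 TPM in EED-/-, 894 and 876 TPM in SUZ12-/-, and 1809 and 420 TPM in EZH2-/-/EZH1-/- H1, and COL4A2 was 3032 and 1855, 843 and 832, and 1703 and 613 TPM. In the lines that keep H3K27me3 they were 30.4 to 47.5 and 28.7 to 60.1 TPM. The log2 differences were 5.01 ± 0.29 and 4.83 ± 0.22 (adjusted p = 8.63e-08 and 2.182e-08). Their ratio was 0.686 to 1.134 in PRC2-null samples and 0.742 to 1.059 in the others. These are the head-to-head neighbours with the CpG-rich stretch between their starts.

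COL4A3 and COL4A4, which with COL4A5 build the type IV network of the kidney filter, were low throughout. COL4A3 was 21.6 and 25.1 TPM in EED-/-, 6.50 and 9.07 TPM in SUZ12-/-, and 9.2 and 5.05 TPM in EZH2-/-/EZH1-/- H1, against at most 1.04 TPM in the other samples (log2 3.11 ± 0.20). COL4A4 rose by 2.64 ± 0.15, and its PRC2-null range was 4.29 to 20.2 TPM. COL4A5 was 95.2 and 118, 140 and 129, and 106 and 26.3 TPM in the PRC2-null lines in the same order and 5.53 to 12.6 TPM in the others (log2 3.08 ± 0.30). COL4A6 rose by 2.52 ± 0.32. EZH2-/-/EZH1-/- replicate 2 was the lowest of the PRC2-null samples for all 6 genes of this class.

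The multiplexins COL15A1 and COL18A1, which sit where basement membranes meet connective tissue, differed in their level in lines that keep H3K27me3. COL15A1 was at most 0.15 TPM in lines that keep H3K27me3. It was 109 and 83.5 TPM in EED-/-, 230 and 231 TPM in SUZ12-/-, and 71.5 and 15.5 TPM in EZH2-/-/EZH1-/- H1 (log2 6.40 ± 0.30, adjusted p = 2.33e-08). COL18A1, the source of endostatin, was 118 to 225 TPM in lines that keep H3K27me3. It was 880 and 842 TPM in EED-/-, 278 and 266 TPM in SUZ12-/-, and 902 and 568 TPM in EZH2-/-/EZH1-/- H1 (log2 1.79 ± 0.14). COL15A1 was highest and COL18A1 lowest in SUZ12-/- H1 among the PRC2-null lines.

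Of the 5 type VI genes, 3 were called higher. COL6A1, COL6A2 and COL6A3 encode the chains of the common type VI trimer. COL6A1 was 531 and 292 TPM in EED-/-, 899 and 924 TPM in SUZ12-/-, and 471 and 283 TPM in EZH2-/-/EZH1-/- H1, against 61.3 to 141 TPM in lines that keep H3K27me3 (log2 2.40 ± 0.18). COL6A2 was 818 and 419, 1510 and 1484, and 541 and 262 TPM in the same order, against 42.4 to 102 TPM (3.43 ± 0.20). COL6A3 was 437 and 88.7 TPM in EED-/-, 418 and 413 TPM in SUZ12-/-, and 124 and 65.9 TPM in EZH2-/-/EZH1-/- H1, against 0.81 to 4.09 TPM (5.95 ± 0.38). The ratio of COL6A1 to COL6A2 was 1.342 to 1.787 in lines that keep H3K27me3 and 0.596 to 1.077 in PRC2-null samples, without overlap. COL6A3 stood at 0.01 to 0.044 of COL6A1 in the former and 0.233 to 0.824 in the latter. COL6A6 was 1.00 and 1.61 TPM in EED-/-, 4.68 and 5.06 TPM in SUZ12-/-, and 1.12 and 0.25 TPM in EZH2-/-/EZH1-/- H1, against at most 0.39 TPM, and was not called (1.37 ± 0.17), and COL6A5 was at most 0.91 TPM and was not tested.

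Among the network collagens, COL8A1 and COL8A2 encode type VIII chains, known from the endothelial layers of cornea and vessels. COL8A1 was 51.0 and 37.7 TPM in EED-/-, 5.46 and 3.70 TPM in SUZ12-/-, and 24.5 and 6.49 TPM in EZH2-/-/EZH1-/- H1, against at most 1.05 TPM (log2 3.29 ± 0.28). COL8A2 was 63.5 and 7.63 TPM in the 2 EED-/- samples, the widest gap between replicates of any member with a mean TPM of at least 10, 22.7 and 20.5 TPM in SUZ12-/-, and 7.80 and 10.8 TPM in EZH2-/-/EZH1-/- H1, against 1.68 to 3.16 TPM (2.43 ± 0.39). COL10A1, the collagen of hypertrophic cartilage, was at most 0.56 TPM in the samples of lines and was not tested.

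The FACIT class was divided, with 5 of 10 called higher and a median of 1.38. COL12A1, which coats type I fibres, was 312 and 142 TPM in EED-/-, 71.9 and 71.5 TPM in SUZ12-/-, and 148 and 103 TPM in EZH2-/-/EZH1-/- H1, against 1.13 to 3.44 TPM (log2 5.36 ± 0.21, adjusted p = 5.979e-09). COL16A1 (2.84 ± 0.19), COL21A1 (2.21 ± 0.21) and COL19A1 (1.75 ± 0.33) also rose. COL21A1 was 74.8 and 68.8 TPM in SUZ12-/- H1 and 4.12, 7.82, 9.2 and 4.50 TPM in the EED-/- and EZH2-/-/EZH1-/- samples, against 1.87 to 3.54 TPM. COL14A1 was 124 and 128 TPM in SUZ12-/- H1, but 23.8 and 15.5 TPM in EED-/- and 12.8 and 8.52 TPM in EZH2-/-/EZH1-/- H1, which overlapped the 11.1 to 16.9 TPM of the lines that keep H3K27me3, and it was not called over the 3 lines (1.02 ± 0.16). COL20A1 (at most 1.47 TPM in the samples of lines) and COL22A1 (at most 6.96 TPM) were not called.

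The 3 chains of type IX collagen, which coats type II fibres in cartilage, went different ways. COL9A2 was 58.1 and 59.8 TPM in EED-/-, 31.0 and 28.0 TPM in SUZ12-/-, and 87.8 and 40.1 TPM in EZH2-/-/EZH1-/- H1, against 2.11 to 6.86 TPM (log2 3.35 ± 0.22). COL9A1, named here after its values were seen, was 3.19 to 7.94 TPM in PRC2-null samples and 9.05 to 14.4 TPM in the others (-1.06 ± 0.18, adjusted p = 0.000285). It was the only 1 of the 42 members with each PRC2-null sample below each other sample, and its difference was under 3-fold. COL9A3, the FACIT gene with the highest mean TPM over the 12 samples, was 48.4 and 72.4 TPM in EED-/-, 68.5 and 66.9 TPM in SUZ12-/-, and 158 and 63.7 TPM in EZH2-/-/EZH1-/- H1, against 45.1 to 157 TPM (-0.04 ± 0.30, adjusted p = 0.9179), and the sign of this difference turned when single samples were left out. The ratio of COL9A2 to COL9A1 was 4.802 to 15.811 in PRC2-null samples and 0.147 to 0.675 in the others.

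Of the transmembrane collagens, COL17A1, which anchors epithelial cells in hemidesmosomes, was 18.9 and 42.4 TPM in EED-/-, 27.5 and 25.6 TPM in SUZ12-/-, and 24.7 and 50.7 TPM in EZH2-/-/EZH1-/- H1, against 0.21 to 2.14 TPM (log2 3.94 ± 0.26). COL25A1 was 123 and 45.7 TPM in EED-/-, 6.65 and 6.47 TPM in SUZ12-/-, and 40.4 and 8.01 TPM in EZH2-/-/EZH1-/- H1, against 1.22 to 4.68 TPM (2.63 ± 0.39). COL13A1 (0.13 ± 0.22) and COL23A1 (-0.29 ± 0.20) overlapped between the groups, and the sign of the COL13A1 value turned with median-ratio scaling and without EZH2-/-/EZH1-/- replicate 1. COL7A1, which forms the anchoring fibrils under epidermis, was 18.3 and 32.5 TPM in EED-/-, 40.0 and 43.6 TPM in SUZ12-/-, and 25.6 and 28.9 TPM in EZH2-/-/EZH1-/- H1, against 3.83 to 11.1 TPM (2.06 ± 0.17). COL26A1 was 64.3 to 89.6 TPM in lines that keep H3K27me3, 33.5 and 44.2 TPM in EED-/-, 33.9 and 36.7 TPM in SUZ12-/-, and 65.6 and 50.4 TPM in EZH2-/-/EZH1-/- H1 (-0.87 ± 0.12, adjusted p = 6.953e-05), under 3-fold and with an overlap. COL28A1 stayed at or below 1.41 TPM in the samples of lines, and the sign of its difference (0.11 ± 0.15) turned with median-ratio scaling.

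The machinery that makes collagen was described from a list of 40 genes for chain modification, folding, export, processing, cross-linking and collagen receptors. Of these, 26 were called higher and 0 lower, where 13.5% and 5.09% of all genes tested were, with a median of 1.92 against 0.29 over all genes. Negative values were found for 3 genes, the lowest for the collagen receptor DDR1, named after its value was seen, at -0.55 ± 0.14 (adjusted p = 0.003931), under 3-fold. ITGA11, the alpha chain of a collagen-binding integrin, was 656 and 298 TPM in EED-/-, 43.7 and 41.2 TPM in SUZ12-/-, and 143 and 58.5 TPM in EZH2-/-/EZH1-/- H1, against at most 0.29 TPM (log2 6.74 ± 0.25). LOX, which cross-links collagen, was 69.7 to 170 TPM against 0.33 to 1.69 TPM (6.22 ± 0.20), and its relative LOXL4 was 14.6 to 65.3 TPM against 0.12 to 0.54 TPM (4.80 ± 0.14). These 3 were the largest rises of the list.

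Markers of other cell types moved with the collagen genes. Of 10 smooth muscle and fibroblast markers, 8 were above each sample of the lines that keep H3K27me3 in each PRC2-null sample, and their summed TPM was 6294 to 9236 against 852 to 1335. THY1, a surface protein of fibroblasts that is also present in hESCs, went the other way, at 50.1 to 212 TPM in PRC2-null samples and 347 to 688 TPM in the others. Lying above each such sample held for 24.2% of all genes tested. It held for 4 of 6 endothelial, 4 of 5 cartilage, 6 of 6 early endoderm, 5 of 5 liver-like endoderm and 4 of 4 trophoblast markers. Of 3 neural markers it held for 1, PAX6, at 5.66 to 129 TPM against 0.24 to 0.70 TPM. NES overlapped between the groups, and SOX1 was at most 0.32 TPM in the samples of lines. Summed TPM was 56.6 to 528 against 46.1 to 145 for endothelium, 49.1 to 109 against 7.36 to 13.4 for cartilage, 228 to 563 against 25.6 to 33.6 for early endoderm, 1290 to 20436 against 4.52 to 14.9 for liver-like endoderm, 103 to 423 against 12.2 to 14.8 for trophoblast and 51.4 to 363 against 76.3 to 155 for the neural list. The part of these cell types in the collagen levels was not tested.

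Each PRC2-null line was next compared with WT H1 alone, in the same fit. In EED-/- H1, 27 members were higher (16.2% of genes) and 0 lower (6.09%). In SUZ12-/- H1, 29 were higher (14.5%) and 0 lower (5.21%), and in EZH2-/-/EZH1-/- H1, 24 were higher (11.6%) and 0 lower (5.66%). At an unadjusted p under 0.05, COL9A1 and COL26A1 were lower in each of the 3, and 1 member was called lower in EZH2-/-/EZH1-/- H1 without its replicate 1. The 3 comparisons share the WT samples. By line, 21 members were called higher in all 3, as were 7.82% of the genes tested, 6 in 2 of them (4.81%) and 5 in 1 (9.27%), while 12 were called in none, of which 2 were not tested. COL1A1 was higher by log2 6.45 ± 0.38 in EED-/-, 6.13 ± 0.38 in SUZ12-/- and 5.39 ± 0.38 in EZH2-/-/EZH1-/- H1. The 5 called in 1 line were COL5A3, COL6A6, COL14A1, COL19A1 and COL21A1, all in SUZ12-/- H1.

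Loss of 1 enzyme alone was not followed by a called change of any member. In EZH1-/- H1 against WT H1, limma called 0 members higher (0.0576% of genes) and 0 lower (0.0419%), with log2 differences from -0.92 to 1.18. At an unadjusted p under 0.05, 8 were higher and 0 lower, with no share of all genes at that limit beside them. Of the 42 members tested, 33 had a positive difference, with a median of 0.37 against 0.02 over all genes. Summed collagen TPM was 937 and 1028 in EZH1-/- H1 and 687 and 658 in WT H1. In EZH2-/- H1, 0 were higher (0% of genes) and 0 lower (0%), with 0 higher and 1 lower, COL1A2, at an unadjusted p under 0.05, and differences from -0.94 to 0.76. COL1A2 was 27.6 and 30.7 TPM in EZH2-/- H1 and 48.9 and 61.1 TPM in WT H1.

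The PRC2-null lines were then compared with each other. SUZ12-/- H1 had 3 members higher than EED-/- H1 (3.54% of genes) and 4 lower (2.58%), and 6 higher than EZH2-/-/EZH1-/- H1 (3.32%) and 1 lower (1.14%). These comparisons share the SUZ12-/- samples. COL3A1, COL14A1 and COL21A1 were higher in SUZ12-/- H1 in both, by log2 2.50 ± 0.37, 2.65 ± 0.28 and 3.44 ± 0.37 against EED-/- H1 and by 2.77 ± 0.37, 3.47 ± 0.28 and 3.28 ± 0.37 against the double knockout. COL11A1 was lower in both: it was 118 and 137 TPM in SUZ12-/-, 417 and 661 TPM in EED-/-, and 701 and 444 TPM in EZH2-/-/EZH1-/- H1 (-2.04 ± 0.26 and -2.13 ± 0.26). COL18A1 (-1.66 ± 0.24), COL8A1 (-3.02 ± 0.49) and COL25A1 (-3.33 ± 0.68) were lower than in EED-/- H1, and COL15A1 (2.74 ± 0.52), COL6A2 (1.99 ± 0.35) and COL6A6 (1.85 ± 0.29) higher than in the double knockout.

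Between EZH2-/-/EZH1-/- and EED-/- H1, limma called 0 members higher (0.0314% of genes) and 0 lower (0.0576%), with 2 and 13 at an unadjusted p under 0.05 and log2 differences from -1.98 to 1.41. The lower count rests on 1 sample: it rose most without EZH2-/-/EZH1-/- replicate 1, and slightly without EED-/- replicate 2. Each of these fits leaves 1 sample in a line, and the rise is not shown to be particular to collagen genes. The calls between lines were also sensitive to the samples used. Shares of all genes called are not given for these alternatives, so their counts describe the members only. COL14A1 and COL21A1 against EED-/- H1 were the only 2 of the 14 that held in each alternative run. With only the lines of the contrast in the fit, none of the 7 against the double knockout passed. Against EED-/- H1, 1 member was called lower without EED-/- replicate 1 or SUZ12-/- replicate 2, and 2 were without SUZ12-/- replicate 1. Against the double knockout, 12 were called higher without its replicate 1 and 3 without either SUZ12-/- sample, and 3 were called lower without its replicate 2. With the 2 close SUZ12-/- samples averaged as 1, 1 member was lower than in EED-/- H1 and 3 were higher than in the double knockout.

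SUZ12-/- H1 also stood apart in markers. DCN and LUM, matrix proteoglycans of fibroblasts, were 2165 and 2287 TPM and 4637 and 4406 TPM in SUZ12-/- H1, against 5.26 to 30.9 TPM and 318 to 740 TPM in the other PRC2-null samples. AFP, a product of fetal liver and yolk sac, was 13208 and 13695 TPM there and 163 to 768 TPM in the others. TAGLN and CNN1 of smooth muscle were lower there, at 667 and 675 TPM and 24.0 and 21.4 TPM, against 3154 to 3982 TPM and 96.3 to 110 TPM. Their part in the collagen differences was not tested.

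The last set followed H1-EED-/-/EED-OE cells after DOX was withdrawn. The labels give the DOX sample no time of its own, so a difference from it is one from cells kept in DOX and not shown to be one from a starting point. With 1 sample at each time there is no replicate check and no test, and a member was counted where it was past 3-fold of the DOX sample on log2(TPM + 1). Of the members, 38 passed the filter of 1 TPM or more in 2 or more of these 7 samples. At day 8, 3 were higher (2.93% of genes) and 0 lower (0.603%). At day 12, 5 were higher (3.08%) and 1 lower (0.4%), and at day 16, 3 were higher (4.13%) and 0 lower (0.939%). The count then went up to 17 at day 20 (9.62%), 24 at day 24 (13.9%) and 25 at day 28 (18.8%). Lower members numbered 0 at day 20 (2.91%), 2 at day 24 (5.09%) and 2 at day 28 (6.11%), the 2 being COL9A1 and COL26A1 on both days. The median log2 difference over the members counted was 0.34 at day 16, 1.30 at day 20 and 2.42 at day 24, against 0.15, 0.19 and 0.20 over all genes.

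Summed over the 44 genes, collagen TPM was 777 with DOX, 1156, 1282 and 1119 at days 8, 12 and 16, 3002 at day 20, 13276 at day 24 and 11980 at day 28. The classes did not move at the same time. Fibrillar genes summed to 127 TPM at day 16, 458 TPM at day 20 and 7772 TPM at day 24, a step of 17.0-fold in the last 4 days. Type IV genes went from 112 to 337 to 2306 TPM over the same days. Type VI genes were at 448 TPM at day 8 against 184 TPM with DOX, reached 1548 TPM at day 20 and were 1898 and 1106 TPM at days 24 and 28. A higher sum at day 8 than with DOX was not particular to type VI. From DOX to day 8, FACIT genes went from 93.0 to 204.5 TPM, fibrillar genes from 94.7 to 163 TPM and type IV genes from 70.8 to 101 TPM. FACIT genes were at 82.8 TPM at day 16. Multiplexins and the class of other collagens were lower at day 8 than with DOX. The transmembrane class was highest at day 20, at 161 TPM against 40.4 TPM at day 24.

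Single genes showed the early and the late pattern. COL3A1 was 2.93 TPM with DOX, 0.92, 0.30, 0.46 and 2.84 TPM at days 8, 12, 16 and 20, and 2534 and 1237 TPM at days 24 and 28. COL1A1 was 24.4 TPM with DOX, 59.6, 40.8, 19.2 and 72.6 TPM through day 20, and 2011 and 2279 TPM after. COL6A3 was 2.18 TPM at day 20 and 216 TPM at day 24. These 3 genes were thus within 3-fold of their DOX level at day 20 and far above it 4 days later.

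COL5A1, COL5A2, COL4A1 and COL4A2 had an intermediate step at day 20. COL5A1 was 11.02 TPM at day 16, 124 TPM at day 20 and 610 TPM at day 24. COL4A1 was 38.5, 134 and 1162 TPM on these days, and COL4A2 was 46.4, 116 and 1051 TPM. Both type IV neighbours thus rose at the same steps, with a ratio of COL4A1 to COL4A2 of 0.83, 1.156 and 1.105. Their ratio was 0.513 with DOX, 0.763 at day 8 and 0.676 at day 12. The size of the rise differed: at day 20 COL4A1 was 7.03-fold of its DOX level and COL4A2 3.12-fold.

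Other members were highest at day 20, which 7 members in all were. COL6A1 was 117 TPM with DOX, 303, 298 and 351 TPM at days 8, 12 and 16, 1180 TPM at day 20, and 879 and 479 TPM at days 24 and 28. COL13A1, which did not differ between the lines beyond the test's threshold, was 4.07 TPM with DOX, 18.6, 17.2 and 25.9 TPM at days 8, 12 and 16, 96.6 TPM at day 20, and 17.1 and 4.49 TPM at days 24 and 28. COL9A2 was 2.76 TPM with DOX, 139 TPM at day 20 and 47.7 TPM at day 28. COL23A1 was 21.1 TPM with DOX, 53.5 TPM at day 20 and 7.69 TPM at day 28, within 3-fold of DOX throughout. COL13A1 was thus back at its DOX level by day 28.

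COL9A1 and COL26A1 went down. COL9A1 was 14.5 TPM with DOX, 25.5 TPM at day 8, 7.64 TPM at day 20 and 1.35 and 1.01 TPM at days 24 and 28. COL26A1 was 131 TPM with DOX, 58.7 TPM at day 20 and 40.7 and 35.6 TPM at days 24 and 28. By first day past 3-fold higher, 3 members (COL9A2, COL12A1 and COL13A1) passed at day 8, 2 (COL6A2 and COL14A1) at day 12, 14 at day 20, 8 at day 24 and 3 (COL5A3, COL17A1 and COL7A1) at day 28. Of the other 14, 8 were counted and passed at no day, and 6 did not pass the filter. Among these 6, COL4A3 went from 0.41 TPM with DOX to 5.42 TPM at day 28 and COL4A4 from 0.13 to 3.30 TPM, with their rise seen in that sample only.

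**Figure D2:**
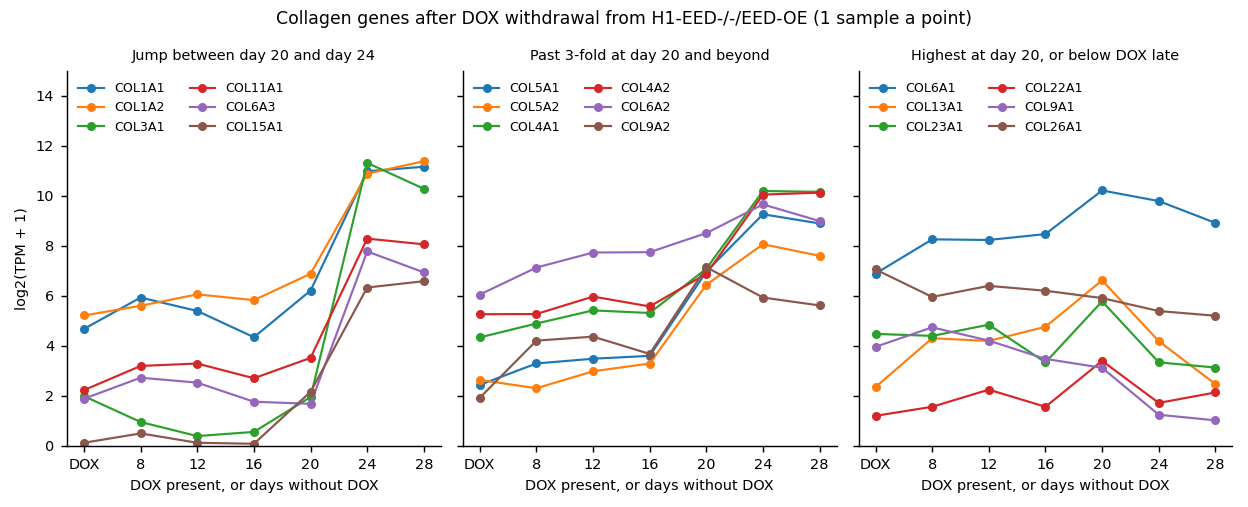
Log2(TPM + 1) of 18 collagen genes in H1-EED-/-/EED-OE cells with DOX and at days 8 to 28 without it, 1 sample at each point, so no error is shown. Left, genes with their main step between day 20 and day 24, such as COL3A1 (2.84 to 2534 TPM); middle, genes already past 3-fold at day 20; right, genes highest at day 20 (COL6A1, COL13A1, COL23A1, COL22A1) or lower late (COL9A1, COL26A1).

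POU5F1 was 1580 TPM at day 20 and 46.2 TPM at day 24, against 2916 TPM with DOX, and GATA4, an endoderm regulator, was 51.3 TPM at day 16 and 137 TPM at day 20. Smooth muscle and fibroblast markers summed to 998 TPM at day 20 and 4301 TPM at day 24, so the step of the fibrillar genes fell in the same 4 days as these. The part of these cell types was not tested. The 2 sets of samples were set side by side with no test, since they are separate sets. Of the 42 members tested in the lines, 41 were within 3-fold of the WT mean in the DOX sample, COL3A1 was higher (0.534% of genes) and 0 were lower (2% of genes). At day 28, 34 were within 3-fold of the EED-/- mean, 0 were higher (1.02% of genes) and 8 were lower (2.08% of genes), namely COL4A3, COL4A4, COL8A1, COL8A2, COL9A1, COL12A1, COL16A1 and COL25A1.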

How the data were processed

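The authors aligned reads with Bowtie (the processing notes list both GRCh38/hg38 and hg19) and made the deposited TPM values with RSEM. TPM carries no depth, so no counting interval or count test could be given, and the edgeR test on raw counts of the study's methods was not run here. Values of 12 samples of lines were tested as log2(TPM + 1) with limma 3.58.1 (R 4.3.3) on the 19100 genes that reached 1 TPM in 2 or more samples, with a mean for each line, 6 residual degrees of freedom, and eBayes with trend and robust settings. A call took a p, adjusted by Benjamini-Hochberg, no higher than 1% and a 3-fold difference. The script was tested on simulated data. The 7 DOX samples have no replicates and were not tested. Members and lists were chosen with earlier results of these data known. Values in each sample were given, by structural class, for up to 4 members with the largest differences among those called, between PRC2-null lines included, and for the member with the highest mean TPM. Of the list of collagen-making genes, the 3 largest called rises were named. Positions came from GENCODE and sequences from RefSeq. For protein sequences no reference was used here.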

Additional observations from a re-analysis of the deposited data

Results flagged for a closer look

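Differences between PRC2-null lines under the same contrast with WT H1 were tested directly with limma, and 14 passed an adjusted p of at most 1% and 3-fold. Against EED-/- H1, SUZ12-/- H1 was higher in COL3A1 (log2 2.503, adjusted p = 0.0009262), COL14A1 (2.645, 0.0001399) and COL21A1 (3.436, 0.0001386). It was lower in COL11A1 (-2.039, adjusted p = 0.000395), COL18A1 (-1.658, 0.0008318), COL8A1 (-3.024, 0.001622) and COL25A1 (-3.329, 0.006337). Against EZH2-/-/EZH1-/- H1, it was higher in COL3A1 (2.773, adjusted p = 0.0006297), COL15A1 (2.74, 0.00533), COL6A2 (1.988, 0.003363), COL6A6 (1.85, 0.001816), COL14A1 (3.469, 2.424e-05) and COL21A1 (3.28, 0.0002182), and lower in COL11A1 (-2.125, 0.0003757). Each of these genes had both SUZ12-/- samples on the same side of both samples of the other line. The genes were called from these same samples, so this adds no support to the calls. COL25A1 and COL15A1 lost their call in most of the alternatives run, with adjusted p from 0.001106 to 0.07654 and from 3.076e-05 to 0.1594.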

How the results depend on the processing

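Without depth, how precise low levels are could not be judged. The number of members called higher in PRC2-null lines was 29 to 30 with single samples left out, and none was then called lower. Over all alternatives run, the number called higher was 21 to 34. Counts left out in turn were 25 to 27 (EED-/- against WT), 26 to 30 (SUZ12-/-) and 22 to 28 (double knockout, with 0 to 1 lower); SUZ12-/- against EED-/- 2 to 4 higher and 1 to 5 lower; SUZ12-/- against the double knockout 3 to 12 higher and 1 to 3 lower; and the double knockout against EED-/- 0 to 10 lower. The lone sample left in a line is assumed to vary like the others. Shares of all genes called are not given for these alternatives or those below, so the counts describe the members only. With a pseudocount of 0.1 or median-ratio scaling, 1 member was lower in the double knockout than in WT H1. With 1 TPM or more asked of all 12 samples, 3 were higher in SUZ12-/- than in the double knockout. At an adjusted p of 5% with no fold limit, 2 were lower in the PRC2-null lines together and in each of them against WT H1, SUZ12-/- had 8 higher and 8 lower than EED-/- and 11 higher and 3 lower than the double knockout, which had 1 lower than EED-/-. With only the lines of the contrast, 13 were higher in the double knockout than in WT H1, 2 were lower in SUZ12-/- than in EED-/-, and 0 were higher and 0 lower against the double knockout. With eBayes settings left plain, 1 was lower in the double knockout than in EED-/-. With the SUZ12-/- samples averaged as 1, an alternative chosen after seeing the data, 1 was lower than in EED-/- and 3 higher than in the double knockout.

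Replicate numbers only name the samples: deviations of same-numbered samples correlated at -0.003 on average over 15 pairs of lines, from -0.121 to 0.218. With a replicate block, 30 members were higher in PRC2-null lines, and SUZ12-/- had 30 higher than WT H1 and 7 higher than the double knockout, so no count moved by over 1.5 times. After withdrawal, a pseudocount of 0.1 gave 6 higher and 1 lower at day 16 and 1 lower at day 20. With WT H1 as reference, 5 were higher at day 8, 3 higher and 0 lower at day 12, and 1 lower at day 24 and at day 28. Without its highest member, the PRC2-null median of a class sum went from 754 to 96.4 TPM for multiplexins, 459 to 355 for FACIT, 79.0 to 31.7 for the 3 others, 11186 to 6595 for fibrillar, 2823 to 1472 for type IV, 1462 to 783 for type VI, 30.7 to 15.8 for types VIII and X, 77.0 to 55.7 for transmembrane and 19330 to 12762 for all 44 genes. Single values turned sign for genes that were not called: with median-ratio scaling COL13A1 (-0.111) and COL28A1 (-0.012), and with single samples left out COL13A1 (-0.085 to 0.344), COL20A1 (-0.034 to 0.190) and COL9A3 (-0.333 to 0.259). The cause was not tested.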
